A study of Mus musculus with 786 samples.

Results

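The NF-kB feedback genes are a group of 10 genes through which the NF-kB pathway controls itself: the inhibitors Tnfaip3, Nfkbia, Nfkbiz and Nfkbie, the subunits Nfkb1, Nfkb2, Rel and Relb, and the cell survival genes Ier3 and Birc3. They were chosen by name, and all 10 of 10 were found by their gene symbol, among 21664 genes in the single-cell tables and 18855 in the bulk table. The study profiled early blood-forming cells of C57BL/6 mouse bone marrow, from mice of 6 to 8 weeks, by single-cell and bulk RNA sequencing. The gate for multipotent precursors 1 (MPP1) was CD34+, CD150+, CD48- and CD135-, and that for haematopoietic stem cells (HSC) differed by CD34-. MPP1 and HSC came from bled mice on 1 plate each and from normal mice on 2 MPP1 plates and 2 HSC plates. The growth note of a further HSC plate, plate 3, names normal and bled mice, so the treatment of its mice is unclear. The bulk libraries were made from 1000 sorted cells each, 1 library for each of 18 populations. The label of the bulk HSC library gives it the CD34+ gate of bulk MPP1, so these gates are the same as labelled.

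NF-kB is a family of transcription factors built as pairs of subunits, and inhibitors of the IkB family hold these pairs inactive in the cytoplasm. Signals from receptors for tumour necrosis factor, interleukin-1 and microbial products lead to the destruction of the inhibitors, and the freed pairs enter the nucleus. Among the first genes that they switch on are their own inhibitors, which end the response, their own subunits, and genes that keep the cell alive. In blood stem cells this pathway is known for linking inflammation to the choice between rest and division.

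The deposited values were FPKM, which count fragments per length of transcript and per size of the library, so they are relative within each library. A cell entered where its well was labelled with 1 cell and at least 1000 genes reached FPKM 1, which left 373 of 460 such wells: 50 bled MPP1, 48 bled HSC, 51 and 48 MPP1, and 50, 53 and 73 HSC cells. The median number of genes per cell ranged from 1969 on HSC plate 3 to 3046.5 on the bled MPP1 plate, and HSC plate 2 (2594) stood above both MPP1 plates (2535 and 2520.5). Read depth is unknown. The 150 wells labelled with no cell served as the background of the assay, although 20 of them reached 1000 genes. Of 8 stem cell marker genes, all were above 0 on every plate, but genes of other blood cells were found too: Lyz2, a lysozyme gene of myeloid cells, in 46.6% to 76.0% of cells by plate, and Cd79b, a part of the B cell receptor, in 18.9% to 39.6%. The T cell markers Cd3d, Cd3e and Cd3g were listed at 0 on the normal plates. On the bled HSC plate their means were 30.7, 4.10 and 3.16 FPKM, but each was found in only 2.08% of the 48 cells. On the bled MPP1 plate Cd3d was found in 4.00% of cells, at a mean of 0.632 FPKM. The repeat run of HSC plate 1 shares its wells and cell numbers, so the columns of that plate could hold either run. HSC plate 3 was made by another protocol and stands in a table of its own. It is therefore shown beside the others and enters tests only where said.

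Promoters from the RefSeq table (build GRCm38.p6) were matched for 7 of the 10 genes, with 10 starts in all. Nfkbiz, Nfkb1 and Relb had no entry. Each promoter runs from 250 bases before to 50 bases after the start, and the study's own values were made on build mm9. The kappa-B consensus, the site that NF-kB pairs are known to bind, was searched on both strands. It was present in 8 of 10 promoters, belonging to 6 of the 7 genes (Tnfaip3, Nfkbia, Nfkbie, Nfkb2, Rel and Ier3), against 8.46% of all 32851 promoters of the table. A narrower form of the consensus, every match of which is also a match of the full one, was present in 3 of 10, belonging to Nfkbia and Nfkb2, against 1.47% of all promoters. The windows of 2 Nfkb2 starts overlap and hold the same site, which matches both forms, so that site is counted for each. Birc3 and the other start of Tnfaip3 held no match in this window. Tnfaip3 is shown as the gene with the widest gap between MPP1 and HSC in share of cells, Nfkbia as the gene found in most cells, and Rel as the gene whose share differed most between cells with and without Tnfaip3. Capitals mark the bases that match the consensus on either strand, and matches that overlap run together.
Tnfaip3, chr10:19015361-19015660, minus strand: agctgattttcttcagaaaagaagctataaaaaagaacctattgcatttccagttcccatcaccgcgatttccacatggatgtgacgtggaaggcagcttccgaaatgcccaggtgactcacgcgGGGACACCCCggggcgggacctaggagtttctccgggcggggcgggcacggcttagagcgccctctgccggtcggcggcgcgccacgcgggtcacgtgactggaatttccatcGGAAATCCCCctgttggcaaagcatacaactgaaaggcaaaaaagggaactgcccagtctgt
Nfkbia, chr12:55492598-55492897, minus strand: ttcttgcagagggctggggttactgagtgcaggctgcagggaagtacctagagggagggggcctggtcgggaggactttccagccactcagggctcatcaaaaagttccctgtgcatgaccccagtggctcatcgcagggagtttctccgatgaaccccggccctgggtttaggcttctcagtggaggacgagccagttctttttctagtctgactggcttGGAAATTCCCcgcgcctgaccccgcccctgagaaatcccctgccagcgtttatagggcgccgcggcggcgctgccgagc
Rel, chr11:23770920-23771219, minus strand: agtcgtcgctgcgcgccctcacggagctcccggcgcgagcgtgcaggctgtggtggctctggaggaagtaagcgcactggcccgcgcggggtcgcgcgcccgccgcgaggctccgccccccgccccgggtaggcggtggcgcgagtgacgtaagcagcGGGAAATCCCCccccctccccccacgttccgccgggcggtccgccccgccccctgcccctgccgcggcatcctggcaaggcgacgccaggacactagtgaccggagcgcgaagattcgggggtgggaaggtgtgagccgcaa
In the Nfkbia promoter the match lay 29 to 20 bases before the start and read GGGAATTTCC on the reverse strand. In the Tnfaip3 promoter the nearest match lay 12 to 3 bases before the start and read GGGGATTTCC on the reverse strand, the same 10 letters as 1 of the overlapping matches in the Rel promoter. These are matches of letters, and binding was not measured.

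The 10 genes were found in very unequal shares of cells. At least 1 of the 10 was found at FPKM 1 or more in 343 of 373 cells (92.0%). Nfkbia was found in 206 cells (55.2%), Ier3 in 143, Nfkbiz in 141 and Nfkb1 in 132. Rel followed with 71 cells, Tnfaip3 with 62 and Birc3 with 42. Nfkbie with 33 cells, Nfkb2 with 24 and Relb with 23 were the least often found. The fitted log2 difference in mean level between cells and no-cell wells was positive for 10 of 10 genes, though single plates could run the other way, and 9 passed (limma, adjusted p under 0.05 over all 9391 genes, 7 plates), where 71.3% of all genes passed in that direction. The median log2 difference was 1.65, against 1.86 over all genes. Nfkbia did not pass (log2 difference 1.53, SE 1.02, adjusted p = 0.177). It was found in 19 of 150 no-cell wells, with 10 of 28 and 3 of 13 on the MPP1 plates, and on the bled MPP1 plate its mean was 32.9 FPKM in cells, against 163 FPKM in no-cell wells, from 1 well at FPKM 1 or more. Nfkbiz was found in as many no-cell wells (19 of 150) and Nfkb1 in 15. Tnfaip3 was found in 3 of 150 no-cell wells, and Nfkbie, Nfkb2 and Relb in 1 each.

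**Figure D1:**
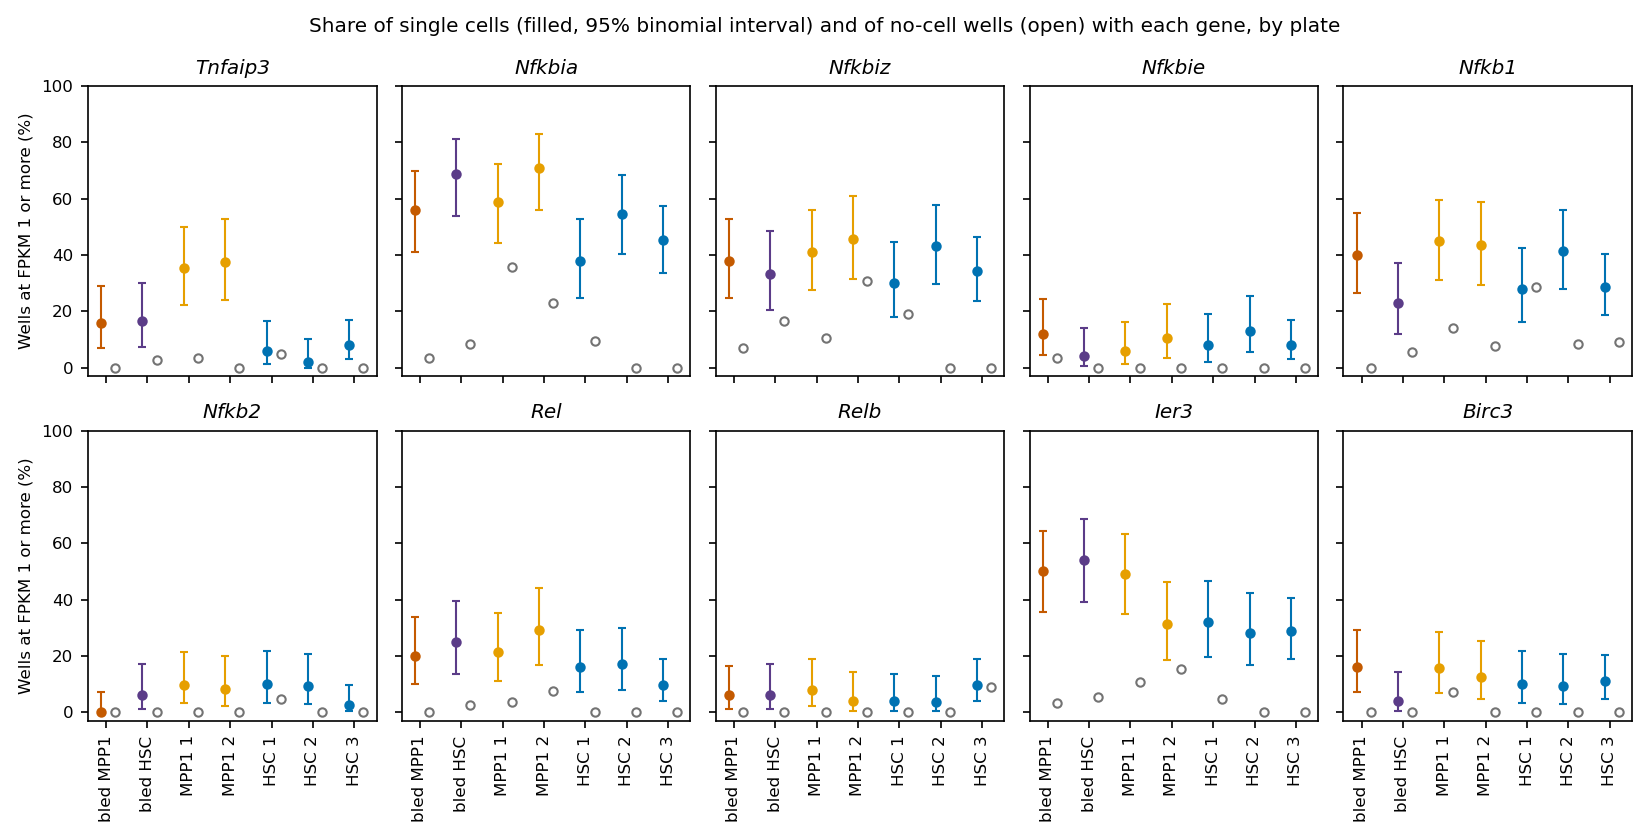
Share of wells at FPKM 1 or more (y axis, %) for each gene, by plate (x axis). Filled points are single cells with 95% exact binomial intervals and open points are no-cell wells of the same plate. Tnfaip3 reached 35.3% and 37.5% on the MPP1 plates, against 6.00%, 1.89% and 8.22% on the HSC plates.

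MPP1 were compared with HSC over 2 plates of each. Tnfaip3, the ubiquitin-editing enzyme that shuts off signalling to NF-kB, stood apart from the other genes of the group. It was found in 18 of 51 and 18 of 48 MPP1 cells, 35.3% (exact binomial 95% interval 22.4 to 49.9) and 37.5% (24.0 to 52.6), against 3 of 50 and 1 of 53 HSC cells, 6.00% (1.25 to 16.5) and 1.89% (0.0478 to 10.1). The intervals of the MPP1 plates did not overlap those of the HSC plates. They cover counting error only. The share averaged 36.4% ± 1.56 on MPP1 plates and 3.94% ± 2.91 on HSC plates (SD, n = 2 plates each). HSC plate 3, outside the test, had 6 of 73 cells (8.22%, 3.08 to 17.0). In no-cell wells it was found in 1 of 28 and 0 of 13 on the MPP1 plates, and in 1 of 21 and 0 of 12 on HSC plates 1 and 2. The counts of 0 allow shares of up to 23.1% and 25.0%.

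The difference in the share of Tnfaip3 cells was 0.45 on the arcsine square root scale (SE 0.08, unadjusted p = 4.05e-05 by limma). By p it ranked 2 of 9822 genes, behind Nr4a1, an immediate early gene described below. The Tnfaip3 difference did not pass adjustment over all genes (adjusted p = 0.172). None of the 10 genes passed in this test, where 0% of all genes passed, and 1 of 10 lay at an unadjusted p under 0.05, against 7.18% of all genes. The call depended on the setting. Tnfaip3 passed when any value above 0 counted as found (adjusted p = 0.00444, with 0.163% of all genes called higher in MPP1). It passed with cells of at least 2000 genes (adjusted p = 0.0443, with 0.0307% called higher). It also passed when HSC plate 3 was added (adjusted p = 0.00246, with 0.121% called higher), an alternative chosen after seeing the data. At FPKM 5 it did not (adjusted p = 0.536).

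The mean level of Tnfaip3 was 17.0 and 12.3 FPKM on the MPP1 plates, against 5.15 and 0.0436 FPKM on the HSC plates. Both MPP1 plates were above both HSC plates, but the HSC plates lay far apart, and 60.0% of the sum on HSC plate 1 came from 1 cell. On log2(mean FPKM + 1), a scale that understates changes of low genes, the difference was 2.61 (SE 1.00, limma unadjusted p = 0.0208, adjusted p = 0.667). Without HSC plate 2 it was 1.33, and with the log2 values averaged over cells it was 1.19 and passed (adjusted p = 0.0479, with 0.193% of all genes called higher in MPP1). Among cells with the gene, the median level was 5.20 and 11.8 FPKM on the MPP1 plates, against 96.4 FPKM in the 3 cells of HSC plate 1 and 1.44 FPKM in the 1 cell of HSC plate 2.

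**Figure D2:**
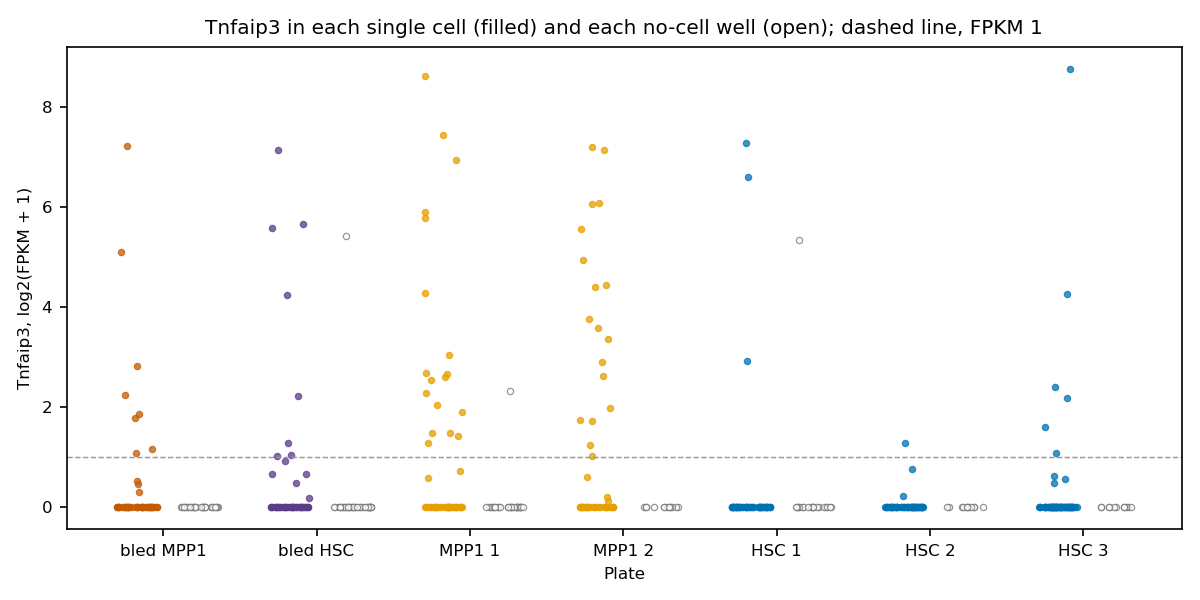
Tnfaip3 level, log2(FPKM + 1), of every single cell used (filled) and every no-cell well (open) on each plate (x axis), with a dashed line at FPKM 1. On both MPP1 plates 18 cells lie on or above the line, against 3, 1 and 6 cells on HSC plates 1, 2 and 3.

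The other inhibitors differed less. Nfkbia, the IkB protein that returns NF-kB to the cytoplasm, was found in 58.8% and 70.8% of MPP1 cells, against 38.0% and 54.7% of HSC cells. Its mean level was 32.1 and 83.9 FPKM in MPP1, against 34.5 and 29.4 FPKM in HSC, so the levels overlapped where the shares did not (log2 difference 0.69, SE 0.58; limma adjusted p = 0.858). The difference was 0.0109 without MPP1 plate 2 and 1.37 without MPP1 plate 1. Nfkbiz, a nuclear IkB protein that also helps to switch on later genes of the response, was found in 41.2% and 45.8% of MPP1 cells, against 30.0% and 43.4% of HSC cells. Its levels did not overlap, at 26.3 and 17.2 FPKM in MPP1, against 8.72 and 14.7 FPKM in HSC (log2 difference 0.85, SE 0.68; limma adjusted p = 0.857). Without the top cell of each plate the Nfkbiz means were 18.7 and 10.3 FPKM in MPP1, against 4.93 and 9.66 FPKM in HSC. Nfkbie, a further IkB protein, was lower in MPP1 by its fitted difference (-1.03, SE 1.03; limma adjusted p = 0.887), and its shares overlapped, at 5.88% and 10.4% in MPP1, against 8.00% and 13.2% in HSC. The difference was -0.06 without MPP1 plate 1 and -2.01 without MPP1 plate 2. On MPP1 plate 2, 92.6% of the Nfkbie sum came from 1 cell.

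Of the subunits, Nfkb1, whose product is cut to the small subunit of the classical pair, was found in 45.1% and 43.8% of MPP1 cells, against 28.0% and 41.5% of HSC cells. Its mean level was 29.0 and 37.6 FPKM in MPP1, against 31.6 and 18.4 FPKM in HSC, and the groups overlapped. Rel, a subunit that drives transcription directly, was found in 21.6% and 29.2% of MPP1 cells, against 16.0% and 17.0% of HSC cells. Its level was 2.38 and 18.1 FPKM in MPP1, against 1.54 and 3.05 FPKM in HSC. Nfkb2 and Relb, which form the pair of the slower, alternative pathway, were rare. Nfkb2 was found in 9.80% and 8.33% of MPP1 cells, against 10.0% and 9.43% of HSC cells, although its mean level was 1.76 and 17.2 FPKM in MPP1, against 1.501 and 0.591 FPKM in HSC. Of the sum on MPP1 plate 2, 98.9% came from 1 cell, and without that cell the mean was 0.199 FPKM. Relb was found in 7.84% and 4.17% of MPP1 cells, against 4.00% and 3.77% of HSC cells.

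Of the survival genes, Ier3, an early response gene that protects from cell death, was found in 49.0% and 31.3% of MPP1 cells, against 32.0% and 28.3% of HSC cells. Its mean level was 56.6 and 34.8 FPKM in MPP1, against 276 and 26.0 FPKM in HSC, so MPP1 lay between the HSC plates. Of the sum on HSC plate 1, 79.0% came from 1 cell at 10890 FPKM, and without it the mean was 59.0 FPKM. The log2 difference of Ier3 was -0.93 (SE 0.82, limma adjusted p = 0.858), and 0.75 without HSC plate 1. Birc3, an inhibitor of cell death that also ubiquitinates signalling proteins, was found in 15.7% and 12.5% of MPP1 cells, against 10.0% and 9.43% of HSC cells, with a log2 difference in level of 0.13 (SE 1.00).

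**Figure D3:**
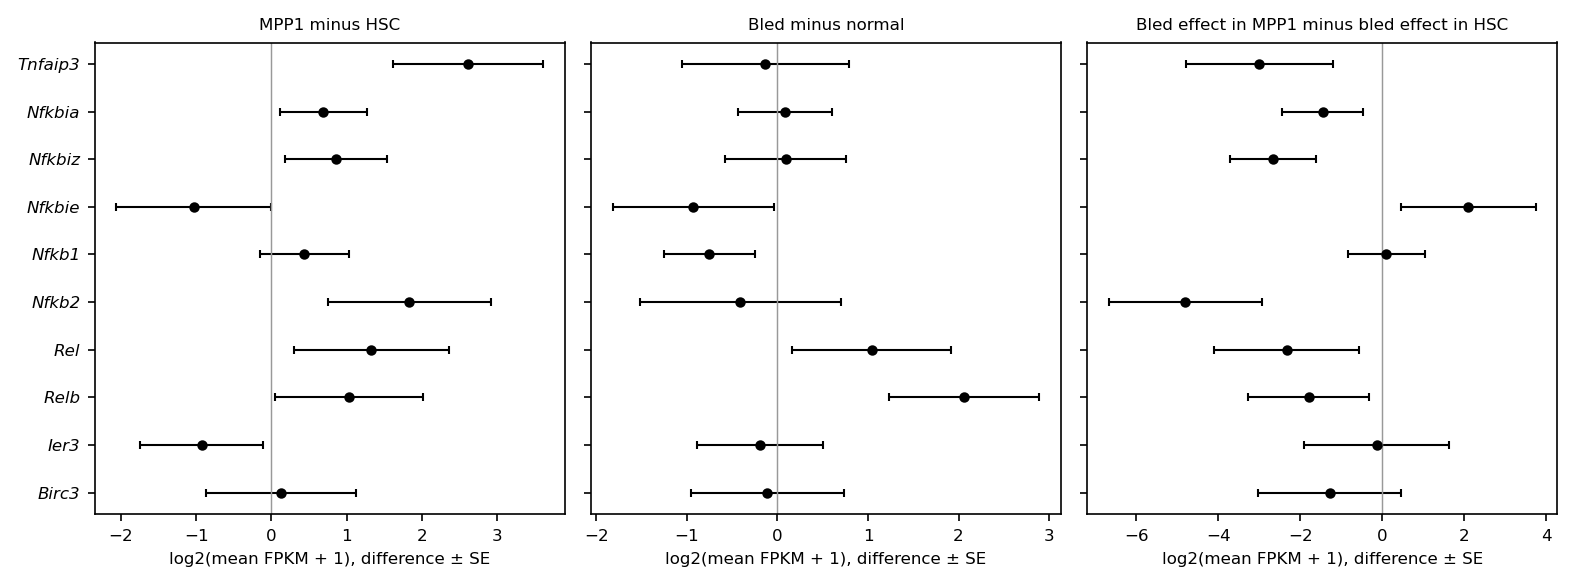
Difference of each gene in log2(mean FPKM + 1) per plate (x axis, points) with its SE (bars) in the comparison of MPP1 with HSC (left), of bled with normal (middle) and in the interaction of both (right). Tnfaip3 lies at 2.61 on the left and -2.998 on the right, and none of the points passed adjustment over all genes.

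In mean level, 8 of the 10 genes were higher in MPP1 and 2 lower, with a median log2 difference of 0.77, against -0.04 over all 9833 genes. None of the 10 passed (limma, adjusted p under 0.05), where 0.0102% of all genes passed, and Tnfaip3 alone lay at an unadjusted p under 0.05, where 6.78% of all genes did. In share of cells, both MPP1 plates stood above both HSC plates for 6 of the 10 (Tnfaip3, Nfkbia, Nfkb1, Rel, Relb and Birc3), and so did 20.5% of all genes. Nothing in the labels says that plates came from separate mice, so these p-values measure the spread between plates only.

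Other genes differed between the same plates. Among 15 immediate early genes, which cells switch on within minutes of a stimulus or of handling, 14 were higher in MPP1 (median log2 difference 1.46), 0 passed limma and 8 lay at an unadjusted p under 0.05, where 6.78% of all genes did. In share of cells 13 were higher and 2 lower, and Nr4a1, Jund and Fosb had the smallest p. For Nr4a1 the limma unadjusted p was 1.46e-05 (adjusted p = 0.143). It was found in 86.3% and 79.2% of MPP1 cells, against 32.0% and 30.2% of HSC cells. Atf3, with shares near those of Tnfaip3, was found in 29.4% and 25.0% of MPP1 cells, against 4.00% and 5.66% of HSC cells. Over the 15 genes the mean share of wells was 67.6% and 72.4% in MPP1 cells, against 51.3% and 51.8% in HSC cells. In no-cell wells it was 46.2% and 47.7% on the MPP1 plates, against 29.8% and 7.78% on HSC plates 1 and 2, and the part of these genes in the Tnfaip3 result was not tested. Of 5 T and NK cell markers in the tables, Nkg7, a granule protein of killer lymphocytes, was found in 41.2% and 37.5% of MPP1 cells, against 8.00% and 15.1% of HSC cells. The summed level of the list was 176 and 76.8 FPKM in MPP1, against 37.2 and 39.3 FPKM in HSC, and Nkg7 alone gave 173 and 74.5 FPKM of it in MPP1, against 36.7 and 39.3 FPKM in HSC. Cd3d, Cd3e and Cd3g were listed at 0 on these 4 plates, and Klrb1c was found in 1.96% and 4.17% of MPP1 cells, against 4.00% and 0% of HSC cells. In cells with none of these markers, Tnfaip3 was found in 10 of 29 and 9 of 28 MPP1 cells (34.5% and 32.1%), against 3 of 44 and 1 of 45 HSC cells (6.82% and 2.22%). The part of cells with these markers in the Tnfaip3 result was not tested.

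Per cell, more of the 10 genes were found on the MPP1 plates on average, a mean that only adds up the shares given above. Such a count was not made for all genes or for other sets. Gene by gene, 20.5% of all genes had both MPP1 plates above both HSC plates in share. The mean number found per cell was 2.90 and 2.94 on the MPP1 plates, against 1.82, 2.23 and 1.86 on the HSC plates, and no HSC plate reached an MPP1 plate. The bled plates lay between them, with 2.54 in MPP1 and 2.42 in HSC. At least 4 of the 10 were found in 33.3% and 35.4% of MPP1 cells, against 8.00%, 9.43% and 13.7% of HSC cells. In no-cell wells the mean number was 0.857 and 0.846 on the MPP1 plates, against 0.714, 0.0833 and 0.182 on the HSC plates. More genes in all were found in cells with 4 or more of the group on MPP1 plate 2 (median 3070 genes, against 2289 in other cells), while on MPP1 plate 1 the medians were 2535 and 2542.

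**Figure D4:**
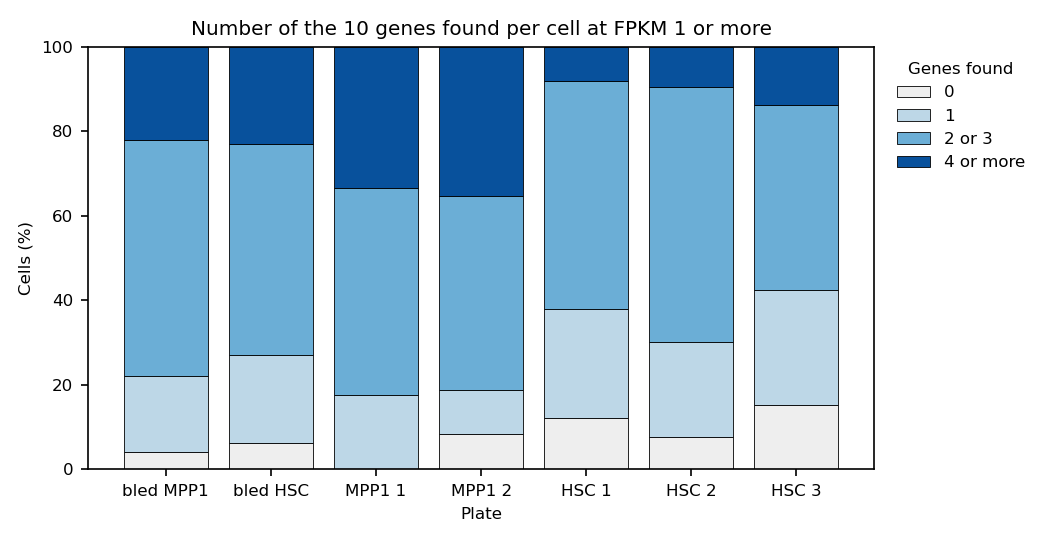
Percentage of cells (y axis) by the number of the 10 genes found at FPKM 1 or more (colours), for each plate (x axis). Cells with 4 or more made up 33.3% and 35.4% on the MPP1 plates and at most 13.7% on an HSC plate.

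Within cells the 10 genes were found together only in part. Over all plates, 41 of the 62 cells with Tnfaip3 also held Nfkbia (66.1%), against 53.1% of the 311 cells without it. Rel was found in 22 of the 62 (35.5%), against 15.8% of the others, and Birc3 in 11 (17.7%), against 9.97%. The cells with Tnfaip3 held 2.81 other genes of the group on average, against 2.06 in the others, with medians of 2542 and 2354 genes in all. Plates differ in the share of Tnfaip3, which feeds into these pooled figures. Within plates, the mean number of others was 2.94 with and 2.33 without Tnfaip3 on MPP1 plate 1, and 3.33 and 2.10 on MPP1 plate 2. On the bled MPP1 plate it was 2.38 both with and without Tnfaip3. Of the 23 cells with Relb, 7 held Nfkbie (30.4%), against 7.43% of cells without Relb. Nfkbie and Nfkb2 were found together in 0 of 373 cells, at 33 and 24 cells each. Nfkb2 was found in only 7.06% of the 340 cells without Nfkbie, so few shared cells could be looked for. Whether the genes avoid each other was not tested. Levels barely followed each other over the 373 cells, each plate centred on its own mean: Pearson's r was 0.16 between Tnfaip3 and Birc3, 0.14 between Tnfaip3 and Nfkbia, and -0.03 between Nfkbia and Nfkbiz. By the same measure the genes most like Nfkbia were Casp4 (r = 0.24), Gstt3 (0.22), Ppp2r3c (0.20), Ncl (0.20) and Phb2 (0.20), all weak, among 7067 genes.

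Bled mice, whose marrow has to replace lost blood, were compared with normal mice over both cell types. Each bled group is 1 plate from a separately made table, so bleeding, table and plate cannot be told apart. In the test of whether MPP1 and HSC differed in their response (the interaction), the spread comes from the normal plates, and the bled plates are assumed to vary like them. Tnfaip3 was found in 8 of 50 bled MPP1 cells (16.0%, 7.17 to 29.1), against 35.3% and 37.5% of normal MPP1 cells. It was found in 8 of 48 bled HSC cells (16.7%, 7.48 to 30.2), against 6.00% and 1.89% of normal HSC cells, with 8.22% on HSC plate 3. The share was thus lower in bled MPP1 than on either normal MPP1 plate. It was higher in bled HSC than on either normal HSC plate or HSC plate 3, and nearly equal between the bled plates when all cells were counted. In cells with no T and NK cell marker, Tnfaip3 was found in 3 of 32 bled MPP1 cells (9.38%) and 7 of 37 bled HSC cells (18.9%). The test of opposite movement in MPP1 and HSC, over all cells, gave -0.46 on the arcsine square root scale (SE 0.12, limma unadjusted p = 0.00742). This did not pass over all genes (adjusted p = 0.754). None of the 10 passed, where 0% of all genes passed. Tnfaip3 was the 1 gene of the group at an unadjusted p under 0.05, where 5.98% of all genes lay. Its mean level was 3.99 FPKM in bled MPP1, against 17.0 and 12.3 FPKM in normal MPP1, and 5.52 FPKM in bled HSC, against 5.15 and 0.0436 FPKM in normal HSC (interaction -2.998, SE 1.79, limma adjusted p = 0.964).

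In mean level the interaction was negative for 8 of the 10 genes, with a median of -1.63, against 0.13 over all genes. None passed, where 0% of all genes passed, and Nfkbiz and Nfkb2 lay at an unadjusted p under 0.05, where 5.10% of all genes did. Nfkbiz was at 8.42 FPKM in bled MPP1, against 26.3 and 17.2 FPKM in normal MPP1, and at 32.1 FPKM in bled HSC, against 8.72 and 14.7 FPKM in normal HSC (interaction -2.67, SE 1.04, limma unadjusted p = 0.0393, adjusted p = 0.954). In bled HSC 42.5% of the Nfkbiz sum came from 1 cell. Without the top cell of each plate its mean was 7.02 FPKM in bled MPP1, against 18.7 and 10.3 FPKM in normal MPP1. It was then 18.8 FPKM in bled HSC, against 4.93 and 9.66 FPKM in normal HSC. Its shares did not follow, at 38.0% in bled MPP1, against 41.2% and 45.8% in normal MPP1, and 33.3% in bled HSC, against 30.0% and 43.4% in normal HSC. Nfkb2 had a mean level of 0.0106 FPKM in bled MPP1, against 1.76 and 17.2 FPKM in normal MPP1. In bled HSC it was at 6.95 FPKM, against 1.501 and 0.591 FPKM in normal HSC (interaction -4.81, SE 1.87). Most of the Nfkb2 sum came from 1 cell on MPP1 plate 2 (98.9%) and in bled HSC (66.9%). Nfkb2 was found in 0 of 50 bled MPP1 cells, which allows a share of up to 6.00%, against 9.80% and 8.33% of normal MPP1 cells. In bled HSC it was found in 3 of 48 cells (6.25%), against 10.0% and 9.43% of normal HSC cells. The immediate early genes ran the same way, with 14 of 15 negative in the interaction and a median of -2.01; their part in these values was not tested.

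Averaged over both cell types, 4 of the 10 were higher and 6 lower after bleeding in mean level, with a median log2 difference of -0.12, against 0.01 over all genes. None passed by limma, where 0% of all 10017 genes passed. Relb alone lay at an unadjusted p under 0.05 (log2 difference 2.06, SE 0.83, p = 0.0267, adjusted p = 0.807), where 5.85% of all genes did. Its level was 5.94 FPKM in bled MPP1, against 3.80 and 0.994 FPKM in normal MPP1, and 10.8 FPKM in bled HSC, against 0.243 and 0.847 FPKM in normal HSC. Only 3 cells of each bled plate carried it, and 90.5% of the bled HSC sum came from 1 of them. HSC plate 3 was at 8.74 FPKM. In share of cells, none of the 10 passed, where 0.03% of all genes passed, and 2 lay at an unadjusted p under 0.05, where 6.47% of all genes did. Ier3 was found in 50.0% of bled MPP1 cells, against 49.0% and 31.3% of normal MPP1 cells, and in 54.2% of bled HSC cells, against 32.0% and 28.3% of normal HSC cells (0.17 on the arcsine square root scale, SE 0.08, limma adjusted p = 0.747). The other was Nfkb2, with the shares given above (-0.18, SE 0.07, limma adjusted p = 0.723).

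The rest of the pathway was described from lists of its parts. Between MPP1 and HSC in mean level, 3 of 5 tested receptors, 9 of 18 adaptors and kinases, 4 of 10 other subunits and inhibitors and 4 of 11 target genes were higher, as were 4756 of all 9833 genes. None of the listed genes passed limma, where 0.0102% of all genes passed. At an unadjusted p under 0.05 stood 0 of the receptors and 1 gene of each other list, where 6.78% of all genes lay: the inhibitor Nfkbid (log2 difference 3.23, SE 0.93, adjusted p = 0.478), the adaptor Myd88 (-1.57, SE 0.72, adjusted p = 0.728) and the chemokine gene Ccl5 (-4.47, SE 1.75, adjusted p = 0.667). Ccl5 was listed at 0 and at 0.130 FPKM on the MPP1 plates, against 0.587 and 348 FPKM on the HSC plates, so its difference rests on HSC plate 2, where 5.66% of cells held it. Nfkbid, a nuclear IkB protein related to Nfkbiz, was found in 29.4% and 31.3% of MPP1 cells, against 8.00% and 9.43% of HSC cells (0.28 on the arcsine square root scale, SE 0.07, unadjusted p = 0.00184, limma adjusted p = 0.307). After bleeding it was found in 32.0% of MPP1 cells and 35.4% of HSC cells. Tnfaip3 was found in 16.0% and 16.7% of these cells.

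The bulk libraries gave 1 value per population, with no replicate and no test, and a lower value in them cannot tell fewer expressing cells from less RNA per cell. Genes at FPKM 1 or more numbered from 1642 in mature megakaryocytes (Mature Meg) to 6080 in GMP-7, with 2866 in HSC and 3392 in MPP1. A value near 0 in 1 such library therefore cannot tell an absent gene from a missed one. Tnfaip3 was at 3309 FPKM in bulk MPP1, against 21.5 FPKM in bulk HSC, the next highest of the 18 populations. The Sca1-high common lymphoid progenitors (CLP Sca1 high) followed with 12.1 FPKM and then MPP2 with 6.04 FPKM, and the median population was at 0.136 FPKM. The single-cell mean in MPP1 was 17.0 and 12.3 FPKM. The tables name different RefSeq transcripts for Tnfaip3, Nfkbiz and Nfkb2, and were made separately, so levels are not compared across them. The genes whose log2(FPKM + 1) was most like that of Tnfaip3 over the 18 libraries were Lax1 (Pearson's r = 0.93), Cd38 (0.93) and 3110045G13Rik (0.93), among 7411 genes that reached FPKM 5. All 3 were highest in bulk MPP1 too, at 81.0, 36.5 and 21.7 FPKM.

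Other genes of the group peaked elsewhere. Nfkbie was at 478 FPKM in MPP3 and next at 27.1 FPKM in megakaryocyte-committed progenitors (MKP). Rel was at 606 FPKM in common lymphoid progenitors (CLP) and next at 29.3 FPKM in pre-granulocyte-macrophage cells (preGM), and was at 0.0165 FPKM in MPP1, against 0.0562 FPKM in HSC. Birc3 was at 574 FPKM in pre-megakaryocyte-erythrocyte cells (preMegE), 401 FPKM in GMP-11, a gate for granulocyte-macrophage progenitors, and 162 FPKM in CLP Sca1 high. Nfkbia was highest in CLP Sca1 high at 52.9 FPKM, then preGM at 11.0 FPKM, and was at 4.16 FPKM in MPP1, against 3.89 FPKM in HSC. Nfkbiz reached FPKM 1 only in the libraries of CLP (12.2 FPKM) and CLP Sca1 high (6.31 FPKM). It was listed at 0 in bulk MPP1, although it was found in 41.2% and 45.8% of single MPP1 cells. Nfkb1 was at FPKM 1 or more in all 18, from 1.04 FPKM in MEP (megakaryocyte-erythroid progenitors) to 58.6 FPKM in MPP3, with 1.18 FPKM in MPP1, against 1.74 FPKM in HSC. Nfkb2 was highest in preGM at 18.2 FPKM, then GMP-7 at 6.87 FPKM. Ier3 was highest in HSC at 22.3 FPKM, with 0.375 FPKM in MPP1, and was listed at 0 in 8 libraries. Relb was at most 0.187 FPKM in a library and was listed at 0 in 13.

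**Figure D5:**
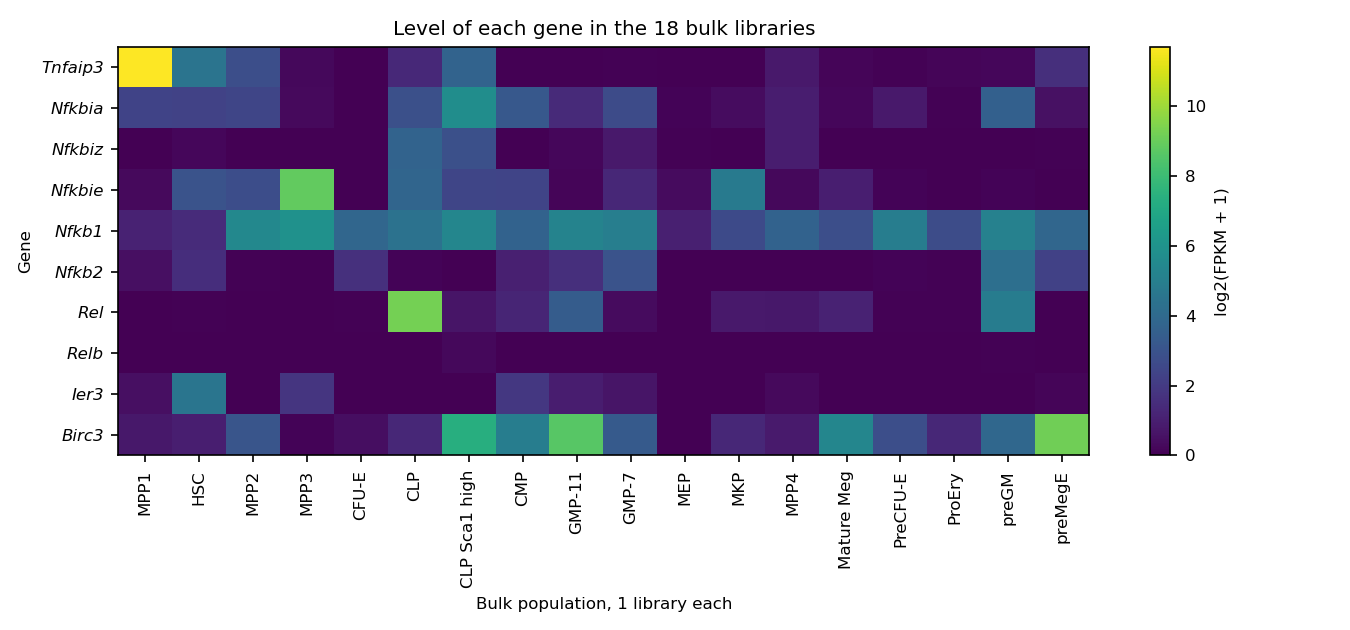
Level of each gene (rows), log2(FPKM + 1) by colour, in each of the 18 bulk libraries (columns, 1 library each). Tnfaip3 in MPP1, at 3309 FPKM, is the brightest cell, followed by Rel in CLP (606 FPKM) and Birc3 in preMegE (574 FPKM).

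Between bulk MPP1 and bulk HSC, 4 of the 10 differed by at least 1 in log2(FPKM + 1), as did 17.3% of all 18855 genes: Tnfaip3 by 7.20, and Ier3 by -4.08, Nfkbie by -2.73 and Nfkb2 by -1.05. Over the 18 libraries, 9 of the 10 had a range of at least 2, as did 43.9% of all genes. The range of Tnfaip3, 11.69, exceeded that of 99.9% of genes. Of the 9 genes that reached FPKM 5, 5 had a highest library at least 4 times the next, taken as FPKM + 1, as did 20.3% of the 7411 genes that reached FPKM 5. In single cells limma called none of these 4 genes between MPP1 and HSC in mean level.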

How the data were processed

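RNA from single cells was made with the Smart-seq protocol and that of bulk libraries with another protocol, per the labels' protocols. The authors deposited FPKM values for every gene of every library. The submitters' processing notes list TopHat 1.3.3, Cufflinks 1.2.1 and build mm9, and for HSC plate 3 also Bowtie2 2.2.1. The order of these steps is not given in the sources used here. Whole reads could not be recovered from low values (a median of 6.56% of low genes stood at the commonest ratio, over 174 pairs of wells), so depth is unknown and no count test was run.

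The plate was the replicate. Cells of a plate were averaged, and limma 3.58.1 (R 4.3.3; trend, empirical Bayes, two-sided) was run on log2(mean FPKM + 1) of all genes that averaged FPKM 1 or more, with Benjamini-Hochberg adjustment over all of them and a threshold of 0.05. The share of cells at FPKM 1 or more was tested likewise after the arcsine square root. Bled against normal had cell type as a covariate, and cells against no-cell wells had the plate as a block. Intervals of shares are exact (Clopper-Pearson, 95%) and cover counting error, and a count of 0 is read against a limit of 3 wells. All 10 genes are named with values, and of other lists the genes past the threshold or, failing that, up to 3 with the smallest p. The genes and lists were chosen with earlier results of these data known. Scripts were tested on simulated data. The alternatives were other pseudocounts (0.1), filters, detection thresholds (FPKM 5 or above 0), cells of at least 2000 genes, rescaling to TPM, HSC plate 3 added, a replicate block and each plate left out.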

Additional observations from a re-analysis of the deposited data

Results flagged for a closer look

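The 62 wells labelled with more than 1 cell entered no comparison, and all 10 genes were found in them more often than in the 150 no-cell wells. How many of all genes did so was not counted. Between single cells and no-cell wells, 9132 of all 9391 genes were higher in mean level. Nfkbia was found in 67.7% of these wells, against 12.7% of no-cell wells, Nfkbiz in 56.5%, against 12.7%, and Ier3 in 54.8%, against 6.00%. Nfkb1 was found in 41.9%, against 10.0%, Rel in 32.3%, against 2.00%, and Tnfaip3 in 22.6%, against 2.00%. Nfkb2 was found in 16.1%, against 0.667%, Nfkbie in 11.3%, against 0.667%, Birc3 in 9.68%, against 1.33%, and Relb in 6.45%, against 0.667%. Single cells held Nfkb2 in 6.43% and Birc3 in 11.3% of cases. The wells came from all 7 plates in unequal numbers, from 2 on HSC plate 2 to 16 on HSC plate 1, and the difference was not tested.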

How the results depend on the processing

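Tnfaip3 kept its direction between MPP1 and HSC under every alternative run, in mean level (1.19 to 4.07) and in share of cells (0.38 to 0.55), and its adjusted p ranged from 0.0479 to 0.979 and from 1.80e-05 to 0.536. Genes called in mean level numbered 1; they numbered 38 (1 of the group, Tnfaip3) with log2 values averaged over cells, 6 after rescaling to TPM and 0 with no filter. In share of cells 0 were called; they numbered 34 with any value above 0 counted, 5 with cells of at least 2000 genes and 15 with HSC plate 3 added, each with 1 of the group, Tnfaip3. With the plate number as a replicate block, 58 genes were called in mean level (0 of the group) and 93 in share of cells (1, Tnfaip3). Over genes, the difference between HSC plates 1 and 2 correlated with that between MPP1 plates 1 and 2 at 0.04. With 2 pairs this is a single contrast, so it cannot tell whether the numbers pair the plates. Leaving out plates gave 0 genes in mean level and 0 to 3 in share. After bleeding, 6 genes were called with averaged log2 values and 0 to 1 without a plate, and in the interaction 323 with no filter, 0 of the group in each.

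Directions that turned belong to differences that no setting called, and the cause was not tested. Between MPP1 and HSC, Ier3 was 0.44 with cells of at least 2000 genes and 0.42 with averaged log2 values, and without a plate it ranged from -2.61 to 0.75 and Birc3 from -0.89 to 1.15. In share, Nfkbie was 0.00626 with cells of at least 2000 genes and ranged from -0.0851 to 4.88e-05 without a plate, and Nfkb2 was 0.0389 with HSC plate 3 added and ranged from -0.0241 to 0.00150. After bleeding, Tnfaip3 was 0.43 with a pseudocount of 0.1. With cells of at least 2000 genes Nfkbia was -0.18, Nfkb2 0.52, Ier3 0.26 and Birc3 0.10. Ier3 was 0.87 with averaged log2 values, rescaling to TPM gave -0.0054 for Nfkbiz and 0.0313 for Birc3, and adding HSC plate 3 gave -0.18 for Nfkbia and 0.11 for Ier3. Without a plate the ranges were -1.63 to 1.36 for Tnfaip3, -0.64 to 0.81 for Nfkbia, -1.24 to 1.42 for Nfkbiz, -1.98 to 0.12 for Nfkbie, -2.81 to 2.00 for Nfkb2, -0.13 to 2.21 for Rel, -0.92 to 0.52 for Ier3 and -0.75 to 0.53 for Birc3. In the interaction, Nfkb1 was -0.17 with cells of at least 2000 genes and -0.60 after rescaling to TPM, Ier3 was 1.13 after rescaling, and Birc3 was 0.0803 with averaged log2 values. Without a plate Nfkb1 ranged from -0.28 to 0.47 and Ier3 from -1.81 to 1.55. Where a bled or normal plate was left out and a group had 1 plate, it was assumed to vary like the others.

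The mean number of the 10 genes per cell over plates was 2.39, and 1.82 at FPKM 5 and 2.85 with any value above 0. Against no-cell wells, 7 to 10 of the 10 were called under all alternatives. Nfkbia passed with averaged log2 values (adjusted p = 1.14e-07) and with no-cell wells under 1000 genes only (0.0214), and Nfkbiz, Nfkb2 and Rel each lost the call without a plate (highest adjusted p = 0.144, 0.0548 and 0.0527). Depth is unknown, MPP1 and HSC had 2 plates each and the bled groups 1 each in the tests, and rare genes rest on few cells.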

Other observations

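Over the 18 bulk libraries, likeness in log2(FPKM + 1) was computed for the 9 genes of the group that reached FPKM 5. St6gal1 (Pearson's r = 0.97), a sialyltransferase, Ebpl (0.97) and Slc37a2 (0.96) were most like Nfkbiz, all highest in CLP. Ubl3 (0.86), Snn (0.85) and BC006779 (0.84) were most like Nfkbia, all highest in CLP Sca1 high. Anxa2 (0.79), a membrane-binding annexin, was most like Nfkb1 and, like it, highest in MPP3. Mfsd11 (0.90) and Bri3 (0.89) were most like Ier3, both highest in HSC. Invs (0.76) was most like Birc3 and, like it, highest in preMegE, while the next, Diap1 (0.73) and Morc3 (0.73), were highest in GMP-11 and CMP. Where 1 library dominates a gene, high likeness largely selects genes with the same peak, so a shared peak is no separate result. Each r is over 18 libraries, 1 per population.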
